A study of Homo sapiens with 6 samples.

Results

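The genes described here encode 9 leukocyte chemoattractant receptors: the chemokine receptors CXCR4, CXCR1, CXCR2, CCR1, CCR2, CCR7 and CX3CR1, and the formyl peptide receptors FPR1 and FPR2. They were taken from a list of names that was chosen with earlier results of these data known. Every V5-GSE1 peak that touched the GENCODE span of such a gene, extended by 50 kb on each side, was assigned to it. These windows held 15 of the 21401 peaks of the DMSO list and 2 of the 13233 peaks of the MC2580 list. The study used chromatin immunoprecipitation and sequencing (ChIP-seq) in NB4 cells, a human acute promyelocytic leukemia line, to ask where GSE1, a chromatin protein that associates with the histone demethylase LSD1, is bound and how an LSD1 inhibitor alters this. The bait was an exogenous, V5-tagged GSE1 (transcript variant 2) delivered with the lentiviral vector pLEX_307, so that the peaks describe the tagged protein and not the endogenous one. Cells with this construct received DMSO or MC2580, the LSD1 inhibitor (2 µM), for 24 h, and a V5 ChIP from untreated cells with the empty vector (EV) together with the inputs served as background. Each of the 6 groups was 1 library. Without replicates no test between the conditions was possible, and each difference below is a difference between 2 libraries whose sequencing depth was unknown. Both lists shared the EV library as background.

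Chemoattractant receptors are G-protein-coupled receptors through which leukocytes sense chemokines or, for the FPR proteins, formylated peptides of bacteria and mitochondria. CXCR4 binds CXCL12 and retains myeloid cells in the bone marrow, whereas CXCR1 and CXCR2 bind CXCL8 and related chemokines and draw mature neutrophils to sites of inflammation. CCR1, CCR2 and CX3CR1 are best known on monocytes, CCR7 guides dendritic and T cells to lymph nodes, and FPR1 and FPR2 are typical of mature neutrophils and monocytes.

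In DMSO-treated cells V5-GSE1 peaks were found around 7 of the 9 genes, with the most at CXCR4 and FPR1 (5 each), and none around CCR2 and CX3CR1. The FPR1 count includes peaks that its window reached only through a distant annotated start. In the MC2580 list there were 2 peaks around these genes, 1 upstream of CXCR4 and 1 in the FPR cluster, and both overlapped a DMSO peak. The sequence at the peaks on which these results turn is given first. The DMSO and MC2580 centres of the CXCR4 upstream peak are shown because that peak had the highest score at any of the genes, the CXCR4 and CXCR2 start-site peaks because they touched an annotated start of the receptor itself, the CCR7 downstream peak because its score was the highest of those called in DMSO alone, and the FPR1 downstream peak because its score was the highest in the FPR cluster. Each line holds 300 bp around a peak centre, from the forward strand of hg38, in lower case. Capitals mark a match, on either strand, to a consensus word of PU.1 (GAGGAAGT), RUNX (TGTGGTTT), AP-1 (TGANTCA, which reads the same on both strands), CEBP (TTGCNNCAA), the GATA factors (the word AGATAAG) or GFI1 (AATCNNNGC), and lines without capitals held none.
CXCR4 upstream peak, DMSO centre (chr2:136135899-136136198): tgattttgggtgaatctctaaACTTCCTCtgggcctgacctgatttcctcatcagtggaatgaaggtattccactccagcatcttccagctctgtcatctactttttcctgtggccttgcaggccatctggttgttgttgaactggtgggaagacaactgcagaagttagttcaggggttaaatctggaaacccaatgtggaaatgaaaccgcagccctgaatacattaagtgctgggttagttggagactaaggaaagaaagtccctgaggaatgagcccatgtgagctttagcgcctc
CXCR4 upstream peak, MC2580 centre (chr2:136136581-136136880): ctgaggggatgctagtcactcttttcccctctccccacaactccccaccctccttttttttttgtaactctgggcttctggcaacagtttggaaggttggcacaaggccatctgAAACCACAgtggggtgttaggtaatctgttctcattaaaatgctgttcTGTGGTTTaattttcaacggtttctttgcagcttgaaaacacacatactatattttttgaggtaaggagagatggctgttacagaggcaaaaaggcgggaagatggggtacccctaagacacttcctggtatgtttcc
CXCR4 start-site peak, DMSO centre (chr2:136116635-136116934): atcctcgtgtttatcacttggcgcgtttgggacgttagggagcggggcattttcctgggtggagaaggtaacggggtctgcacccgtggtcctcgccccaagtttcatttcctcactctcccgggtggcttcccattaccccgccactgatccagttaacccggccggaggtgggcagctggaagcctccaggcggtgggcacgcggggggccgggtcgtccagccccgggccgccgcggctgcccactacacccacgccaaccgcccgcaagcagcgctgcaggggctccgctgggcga
CXCR2 start-site peak, DMSO centre (chr2:218124672-218124971): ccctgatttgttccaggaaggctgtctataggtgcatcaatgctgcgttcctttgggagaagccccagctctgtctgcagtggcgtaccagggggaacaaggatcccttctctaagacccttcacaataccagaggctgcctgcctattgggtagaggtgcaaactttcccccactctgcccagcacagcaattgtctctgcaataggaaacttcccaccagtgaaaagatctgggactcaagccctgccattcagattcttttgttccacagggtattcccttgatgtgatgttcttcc
CCR7 downstream peak, DMSO centre (chr17:40516731-40517030): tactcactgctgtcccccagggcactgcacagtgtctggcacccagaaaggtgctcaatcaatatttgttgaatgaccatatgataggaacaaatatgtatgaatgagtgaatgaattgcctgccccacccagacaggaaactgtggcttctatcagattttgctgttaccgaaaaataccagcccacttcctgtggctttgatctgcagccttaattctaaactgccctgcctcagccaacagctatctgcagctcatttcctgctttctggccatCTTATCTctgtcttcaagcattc
FPR1 downstream peak, DMSO centre (chr19:51736151-51736450): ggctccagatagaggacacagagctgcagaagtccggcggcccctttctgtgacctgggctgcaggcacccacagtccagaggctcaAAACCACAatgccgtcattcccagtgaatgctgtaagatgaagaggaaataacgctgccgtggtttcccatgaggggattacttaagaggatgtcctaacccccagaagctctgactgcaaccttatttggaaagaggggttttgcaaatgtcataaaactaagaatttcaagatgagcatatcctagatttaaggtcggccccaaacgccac

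CXCR4 (chromosome 2, 136114349 to 136119177, minus strand) had 5 DMSO peaks and 1 MC2580 peak. Peaks are compared by the score that MACS gave them, 10 × −log10(p), which equals 50 at the calling threshold and grows with depth. Its highest-scoring peak was intergenic, from 136134683 to 136137414, and was centred 17.9 kb upstream of the canonical transcription start site (TSS). It was 2732 bp wide and scored 967.17 in DMSO, above 97.6% of the scores of that list or equal to them. In MC2580 a peak of 1065 bp with a score of 132.47 lay entirely inside it, from 136136198 to 136137262, and covered 39.0% of its length. The MC2580 peak began 1515 bp inside the DMSO peak and ended 152 bp before its end, so that only the part farther from the gene was called after treatment.

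The ratio of the MC2580 to the DMSO score was 0.137 at this site. Over the 5449 sites of the genome where a single peak of each list met a single peak of the other, the median ratio was 0.638. Since no called peak scores below 50, the ratio a pair can reach depends on its DMSO score, and at this site, described for its high DMSO score, the lowest possible value was 0.0517. The ratio was therefore not ranked among the other pairs. The centres printed above are different stretches of the same region. A PU.1 word lay 124 bp from the midpoint of the DMSO peak, and a pair of RUNX words lay 31 and 17 bp from the midpoint of the MC2580 peak. Of all MC2580 peaks, 4.20% held a RUNX word in the central 300 bp, and 0.242% held at least 2. The site was described for its score, and whether its words differ from other peaks was not tested. The RUNX words were inside the DMSO peak as well, outside its central 300 bp. The DMSO peak also held AP-1, CEBP and GFI1 words outside its central 300 bp, where no share over all peaks is given. PU.1 and RUNX1 are transcription factors of myeloid cells, and a match to a word is not evidence that the factor was bound.

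The second CXCR4 site covered the gene's start region. This DMSO peak lay from 136115839 to 136117730 with a score of 241.75, over other annotated starts of the gene and 419 bp from the canonical TSS. It was centred 1.36 kb downstream of that TSS. The central 300 bp were GC-rich, with 67.7% G or C and 27 CpG dinucleotides, against a median of 48.7% and 4 CpG over all DMSO peaks. No MC2580 peak overlapped it, and the nearest one was the upstream peak, 18049 bp from the canonical TSS.

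The other 3 CXCR4 peaks were also called in DMSO alone. The peak that lay farthest from the gene, from 136167699 to 136169524, was centred 50.5 kb upstream and scored 226.01. It reached across the edge of the window. The remaining peaks were weak, with a score of 69.77 just beyond the 3′ end of the gene (136113045 to 136113896) and of 55.02 at 26.7 kb upstream (136144368 to 136145236). Among the receptor genes, CXCR4 thus had the highest score in both conditions and the widest spread of scores in DMSO.

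**Figure D1:**
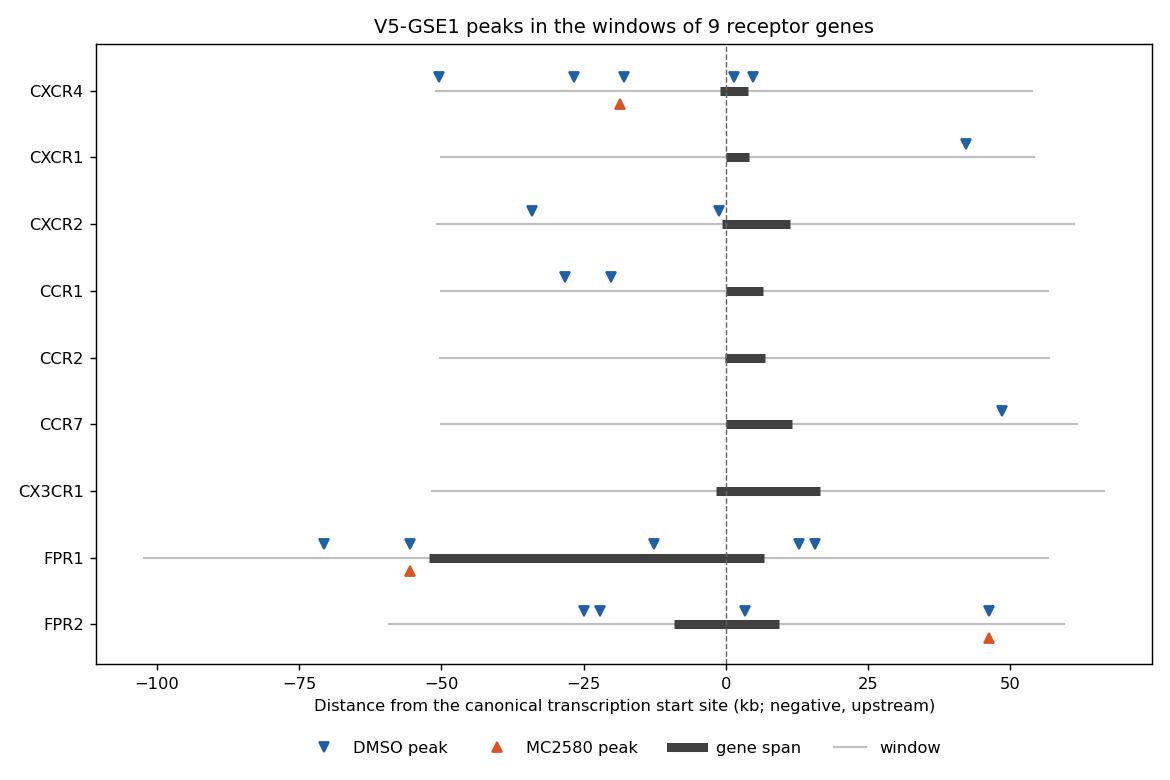
Position of each V5-GSE1 peak centre relative to the canonical TSS of the receptor gene (x axis, kb, negative upstream in the direction of transcription), with 1 row per gene. Downward triangles are DMSO peaks, upward triangles MC2580 peaks, thick bars the gene spans and thin lines the windows; peaks shared by neighbouring genes are drawn in each row. CXCR4 and FPR1 have 5 DMSO peaks each, and CCR2 and CX3CR1 have none.

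CXCR2 (218125289 to 218137251, plus strand) and CXCR1 (218162841 to 218166962, minus strand) are neighbours on chromosome 2 and shared a peak. It lay from 218124337 to 218125306 with a score of 101.29 in DMSO, and overlapped the first 18 bp of CXCR2 at its outermost annotated start. From the canonical CXCR2 TSS it was 722 bp away, and its centre was 1.21 kb upstream. For CXCR1, which is transcribed from the other strand, the same peak was 41656 bp from the TSS, beyond the 3′ end of the gene. A second DMSO peak in the CXCR2 window, from 218091508 to 218092453, was intergenic, centred 34.0 kb upstream, and scored 67.49. CXCR1 therefore had no peak of its own, and neither gene had an MC2580 peak.

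An MC2580 peak lay 240 bp outside the CXCR1 window. It was on chromosome 2 from 218217202 to 218218241, over a start site of ARPC2, which encodes a subunit of the actin-nucleating Arp2/3 complex, and scored 89.93. No DMSO peak overlapped it.

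Of the CC and CX3C receptor genes, CCR1 and CCR7 had DMSO peaks, and none had a peak at a start site of its own, which was also the case for CXCR1. CCR1 (chromosome 3, 46201711 to 46208313, minus strand) had 2 DMSO peaks, from 46228009 to 46228958 with a score of 80.24 and from 46236091 to 46237068 with a score of 90.53. They were centred 20.2 and 28.3 kb upstream of the CCR1 TSS and lay in introns of CCR3, the eotaxin receptor gene, 13423 and 5313 bp from its nearest start. CCR7 (chromosome 17, 40553769 to 40565472, minus strand) had 1 DMSO peak with a score of 260.44, higher than any other peak here except the CXCR4 upstream peak. It lay from 40516379 to 40517382, centred 48.6 kb downstream of the CCR7 TSS, over a start of the long non-coding gene ENSG00000266088. The nearest protein-coding start was that of TNS4, 14756 bp away. The nearest MC2580 peak was 539133 bp from the CCR7 TSS.

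CCR2 (46353864 to 46360940, plus strand) and CX3CR1 (39263495 to 39281735, minus strand), both on chromosome 3, had no peak of either list in their windows. The nearest peaks to CCR2 were in both lists, between CCR1 and CCR2 on chromosome 3. The DMSO peak (46297193 to 46298260) scored 284.68 and the MC2580 peak (46297192 to 46298183) scored 91.13, and they lay 5604 and 5681 bp outside the window. For CX3CR1 the nearest DMSO peak was 79589 bp from the gene, from 39361324 to 39361927, with a score of 55.2, whereas the closest peak of the MC2580 list was at 888646 bp. The absence of DMSO peaks at both genes thus depended on the width of the window, and with 100 kb on each side all 9 genes had a DMSO peak. The share of all protein-coding genes at that width is not given here, so this count has no background.

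The formyl peptide receptor genes overlap on chromosome 19 and were covered by 5 DMSO peaks, of which 4 fell in both windows. In GENCODE, FPR1 spans 51745172 to 51804115 on the minus strand because 1 of its transcripts starts 52237 bp upstream of the canonical TSS, and FPR2 spans 51752026 to 51770531 on the plus strand. The peak inside both genes, from 51764060 to 51765016, scored 88.61. It was centred 3.36 kb downstream of the canonical FPR2 TSS and lay 1300 bp from the nearest annotated FPR2 start. Beyond the 3′ end of FPR1 there were 2 intergenic peaks. They lay from 51735723 to 51736878 with a score of 200.63 and from 51738539 to 51739494 with a score of 93.51. The stronger of the pair carried a RUNX word 58 bp from its centre.

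The peak present in both lists was on the far side of the cluster. In DMSO it was 735 bp wide with a score of 124.22, and in MC2580 751 bp wide with a score of 54.39. The peaks covered 93.6% and 91.6% of each other, and the ratio of their scores was 0.438, close to the lowest value of 0.403 that the threshold allowed for this DMSO score. They lay inside the gene spans of FPR3, the third formyl peptide receptor gene, and ZNF577. The DMSO peak was 2978 bp from the outlying FPR1 start but 55215 bp from the canonical one, and so counted as a promoter peak of FPR1 only through that transcript. The fifth DMSO peak, from 51821886 to 51823013 with a score of 200.3, was intronic in FPR3 and ZNF577 and belonged to the FPR1 window alone. From the canonical FPR1 TSS it was 70008 bp away. This peak and the site in both lists were in the FPR1 window only through the outlying transcript. The site found in both lists was thus not the strongest of the cluster in DMSO, where 2 peaks scored above 200.

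**Figure D2:**
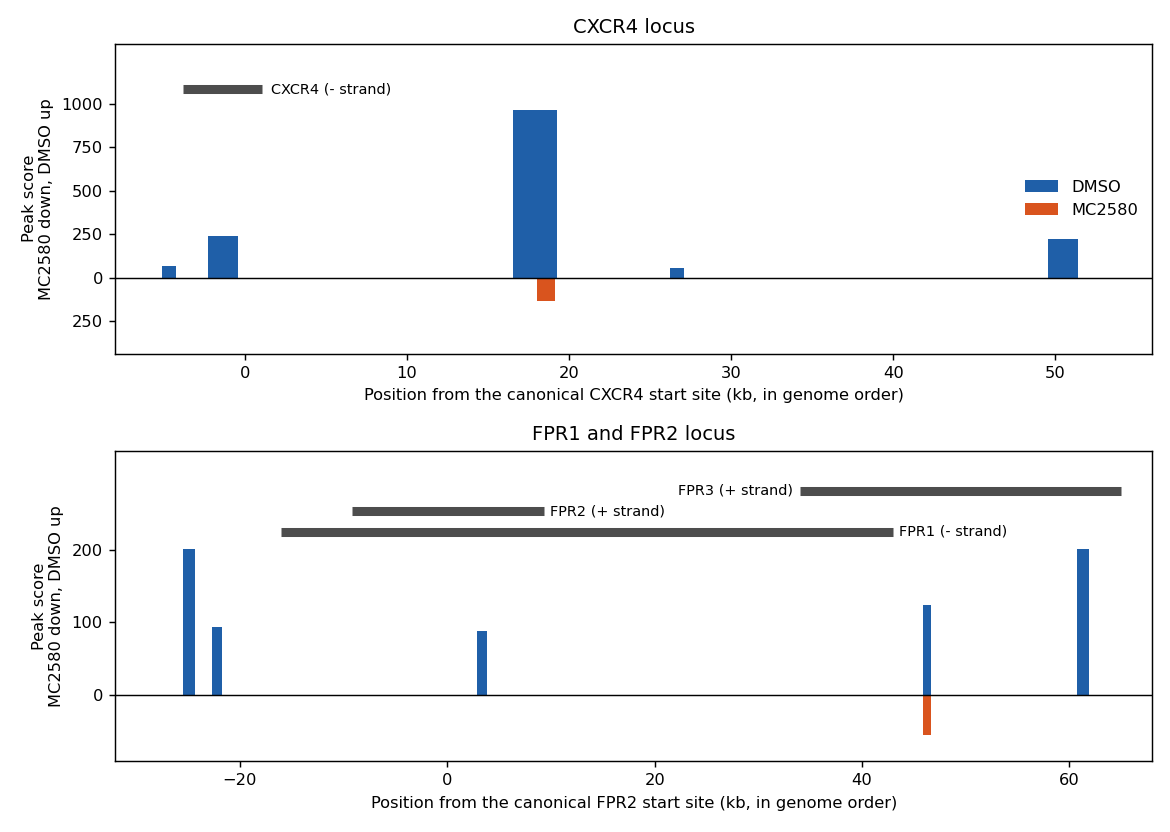
Peaks at the CXCR4 locus (top) and the FPR1 and FPR2 locus (bottom), drawn to scale along the x axis (kb from the canonical TSS of CXCR4 or FPR2, in genome order). Bar width is peak width and bar length the peak score, upward for DMSO and downward for MC2580, with gene spans above; the MC2580 peak at CXCR4 (132.47) lies inside the DMSO peak of 967.17, and the MC2580 peak in the FPR cluster (54.39) faces the DMSO peak of 124.22.

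The 9 genes were then read against all 20033 protein-coding genes, whose windows were built in the same way. Because the genes were chosen with earlier results known, the shares describe them and are not a test. At least 1 DMSO peak was found in the windows of 7 of 9 receptor genes and of 47.9% of all genes. For MC2580 this was 3 of 9, against 27.3%. A DMSO peak with no MC2580 peak in the window was found for 4 of 9 genes (CXCR1, CXCR2, CCR1 and CCR7), against 22.8%, and against 23.9% outside peak-dense bins, defined as 1 Mb bins with 40 or more peaks of both lists together. At least 5 DMSO peaks were found for 2 of 9 genes, against 9.54%, or 4.65% outside dense bins. FPR1 reached this count, and had an MC2580 peak, only through its outlying transcript start. The median number of DMSO peaks per window was 2 for the receptor genes and 0 over all genes, and for MC2580 it was 0 in both. Since neighbours share peaks, the 9 windows are only 7 separate regions, and 5 DMSO peaks are counted for 2 genes each. The 3 genes with an MC2580 peak drew on only 2 peaks, since that of the FPR cluster is counted for FPR1 and FPR2. Per Mb, these regions held 17.7 DMSO and 2.36 MC2580 peaks. The windows of all protein-coding genes, dense bins included, held 9.19 and 5.4.

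**Figure D3:**
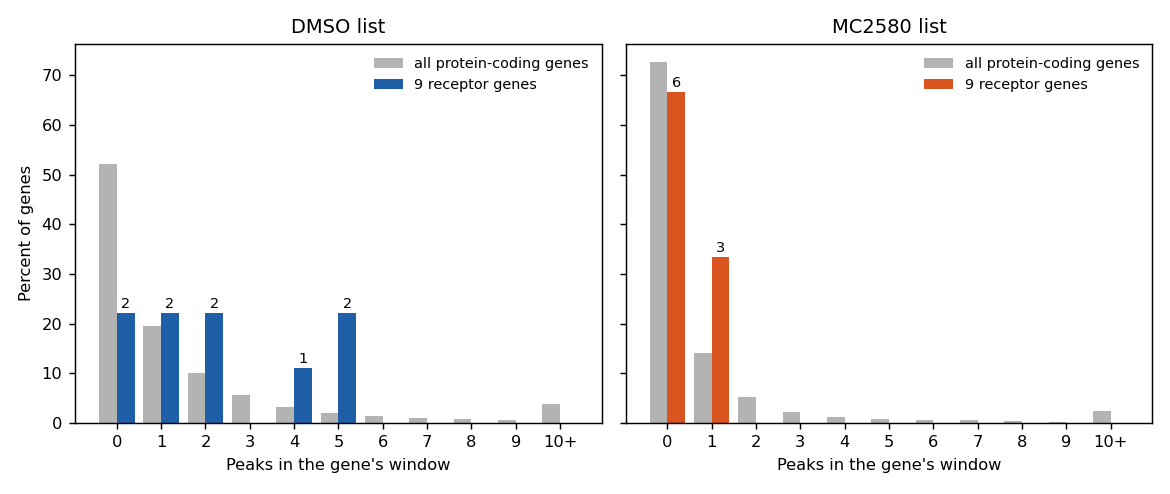
Percent of genes (y axis) by the number of peaks in the gene's window (x axis, 10+ for 10 or more) in the DMSO list (left) and the MC2580 list (right). Grey bars are all 20033 protein-coding genes and coloured bars the 9 receptor genes, with their number above; 2 receptor genes have no DMSO peak, against 52.1% of all genes, and 6 have no MC2580 peak, against 72.7%.

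No receptor gene lay in a dense bin, since the bins that held the canonical TSSs had 3 to 24 peaks. Outside dense bins 44.4% of genes had a DMSO peak and 22.8% an MC2580 peak in the window.

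Peaks at start sites were compared in the same way. A DMSO peak within 3 kb of an annotated TSS was found for CXCR4, CXCR2, FPR1 and FPR2, thus for 4 of 9 genes, against 16.1% of all protein-coding genes and 12.4% of those outside dense bins. For MC2580 it was 1 of 9 (FPR1, through its outlying start), against 7.87% and 4.54%. Of the 15 DMSO peaks, 6 were at a promoter of any gene, 3 were intronic and 6 were intergenic. The shares of these classes over the whole DMSO list are not given here, so the counts only describe these peaks.

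The overlap between the lists was 2 of 15 DMSO peaks, or 13.3% (Wilson 95% interval 3.74 to 37.9, for counting error only), against 33.6% of the whole DMSO list. Correspondingly, 13 of 15 had no MC2580 counterpart, against 66.4% of all DMSO peaks and 76.3% of those outside dense bins. Both MC2580 peaks overlapped a DMSO peak, as did 58.0% of that list. Of the 8 DMSO peaks with a score of at least 100, 6 had no counterpart, against 44.8% of all such peaks and 55.6% outside dense bins. The counts are small, the peaks come from 1 library, and many of them lie in the same locus. The interval treats the peaks as independent, so it is not a test against the share of the whole list.

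**Figure D4:**
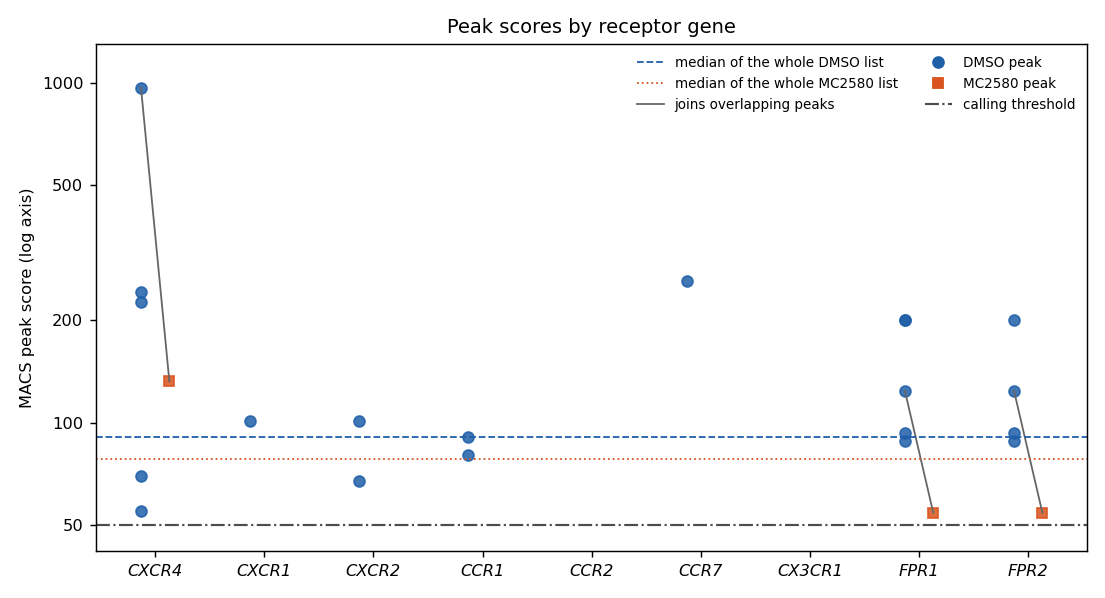
MACS peak score on a log axis for each receptor gene, with DMSO peaks as circles and MC2580 peaks as squares. Grey lines join overlapping peaks, dashed and dotted lines mark the medians of the whole lists (91.08 and 78.1), and the dash-dotted line the calling threshold of 50; at FPR1 the scores 200.63 and 200.3 coincide. Each joined pair falls from DMSO to MC2580, from 967.17 to 132.47 at CXCR4 and from 124.22 to 54.39 at FPR1 and FPR2.

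The DMSO peaks around the receptor genes ranged in score from 55.02 to 967.17 with a median of 101.29, against 91.08 for the whole list. Their widths ran from 735 to 2732 bp with a median of 970 bp, against 1000 bp. In the score range above 200 there were 6 peaks, 3 at CXCR4, 2 in the FPR cluster and 1 at CCR7, and 5 of the 6 had no MC2580 counterpart, the exception being the CXCR4 upstream peak. Of all DMSO peaks with a score of at least 200, 23.3% had no counterpart, and 32.3% of those outside dense bins. This cut was chosen after the scores were seen, and 2 of the 6 peaks lay just above it. The scores were not corrected for depth.

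Consensus words were counted in the central 300 bp of the 15 DMSO peaks. The GFI1 word was present in 4 peaks, against 20.9% of all DMSO peaks, and the GATA word in 3, against 4.81%. The AP-1 word was present in 2 (13.1% of all), the PU.1 word in 1 (4.00%) and the RUNX word in 1 (6.07%), and the CEBP word in 0 (2.90%). The GC content of these windows ran from 39.0% to 67.7% with a median of 48.0%, against 48.7%. No word was common to the receptor peaks. In the 250 bp before the RefSeq start of CXCR4 that lies within the start-site peak, a GFI1 word was present. This word was found in 9.65% of 35116 RefSeq promoters (GRCh38.p14). It was also present in the RefSeq promoters of CXCR2 and CCR1, over which neither list had a peak. The other RefSeq promoters of CXCR4 held none of the words.

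Other genes of the same pathway were examined from lists that were also chosen with earlier results known. Among 16 other chemokine receptors, 7 (43.8%) had a DMSO peak in the window and 5 (31.2%) an MC2580 peak, with medians of 0 peaks in each list. Over all protein-coding genes the shares were 47.9% and 27.3%. In these lists a start-site peak is one within 3 kb of an annotated TSS, whether or not it covers the TSS. CXCR3, a receptor of activated T cells, had a DMSO start-site peak with a score of 730.77 that overlapped an MC2580 peak with a score of 190.97. CCR3 had a weak DMSO start-site peak (73.74) and 8 DMSO and 2 MC2580 peaks in its window, among them the 2 DMSO peaks assigned to CCR1. All 13 other chemoattractant receptors had a DMSO peak in the window and 7 (53.8%) had an MC2580 peak, with medians of 2 and 1. FPR3 had 3 DMSO peaks and 1 MC2580 peak, all of them also in the FPR1 window. The complement receptor genes C5AR1 and C5AR2 had start-site peaks in both lists, but lay in a 1 Mb bin with 92 peaks. PTAFR, the receptor of platelet-activating factor, had a DMSO start-site peak (173.02) and no MC2580 peak in the window, and S1PR3 and CMKLR2 had DMSO start-site peaks of 110.25 and 54.75 without an MC2580 peak. CMKLR1 had a DMSO start-site peak of 66.42 in a bin with 91 peaks.

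Of 24 ligands of these receptors, 13 (54.2%) had a DMSO peak and 9 (37.5%) an MC2580 peak in the window, with medians of 1 and 0. The shares over all protein-coding genes were 47.9% and 27.3%. Neighbouring ligand genes have overlapping windows, so a peak can be counted for more than 1 gene, as at CCL2 and CCL7. CCL2, the main ligand of CCR2, had a start-site peak in both lists, with scores of 313.58 and 81. CCL19 and CCL21, the ligands of CCR7, had start-site peaks in both lists within a bin of 340 peaks. Without a start-site peak, CCL4 had 9 DMSO and 7 MC2580 peaks in its window, and CCL3 had 4 and 4. CXCL1, CXCL2, CXCL3, CXCL5, CXCL6, CXCL8 and PPBP, which bind CXCR2, lie together on chromosome 4 and had no peak in either list, while CXCL12, the ligand of CXCR4, had 0 DMSO peaks and 1 MC2580 peak.

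Genes of signalling downstream of the receptors carried more peaks, and many of them are long, which widens their windows. How far length accounts for the counts was not tested. Of 24, 23 (95.8%) had a DMSO peak and 13 (54.2%) an MC2580 peak in the window, with medians of 3 and 1, against 47.9% and 27.3% of all protein-coding genes. A start-site peak was found for 14 and 6 of them, against 16.1% and 7.87% of all genes. RGS2, which limits signalling of G proteins, had a start-site peak with a score of 456.26 in DMSO that overlapped one of 51.39 in MC2580. The scores of the strongest DMSO start-site peak and of the MC2580 peak that overlapped it were 355.85 and 107.1 at GRK2, a kinase that desensitizes receptors, and 274.73 and 52.34 at RGS19. They were 208.3 and 71.09 at the G-protein gene GNAI2, and 127.3 and 59.58 at PLCB2. RAC2 (171.01), VAV1 (158.64), FGR (139.08), GNG2 (118.07), PREX1 (83.01), GRK6 (80.49), RGS18 (64.04) and ARRB2 (57.53) had a start-site peak in DMSO only. At ELMO1 the strongest start-site peaks of the lists (131.96 in DMSO and 73.47 in MC2580) lay at different starts of the gene.

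**Figure D5:**
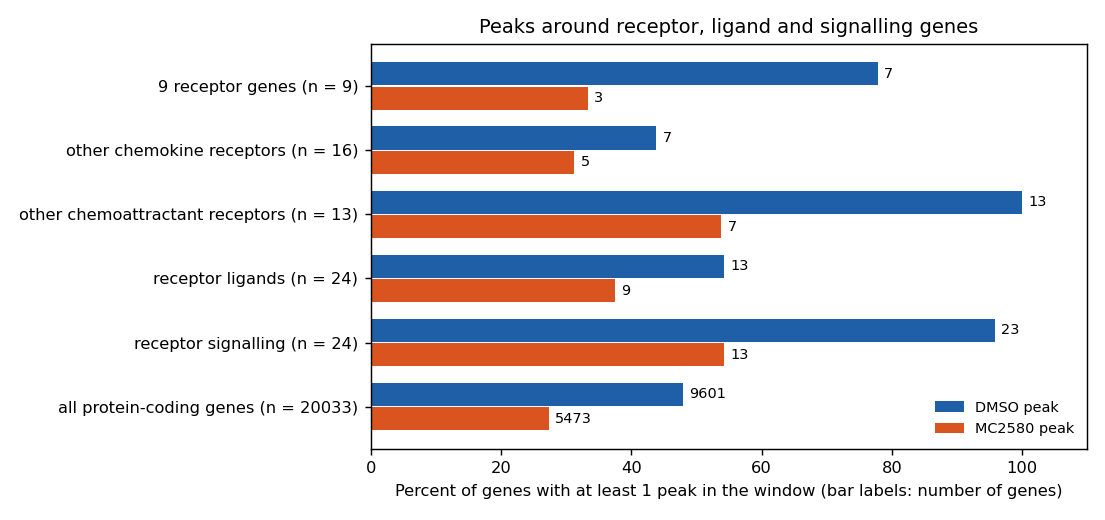
Percent of genes with at least 1 peak in the window (x axis) for the 9 receptor genes, the 4 lists and all 20033 protein-coding genes, with DMSO bars above MC2580 bars and the number of genes beside each bar. The MC2580 bar is shorter than the DMSO bar in every list, as it is over all genes (27.3% and 47.9%).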

How the data were processed

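Alignment to hg38 was done by the authors with Bowtie (unique matches, 2 or fewer mismatches). Peaks were called by them with MACS against the respective input and the EV ChIP, with 1e-05 as the p-value limit. The deposited score of each peak is 10 × −log10(p). The 2 peak lists were assigned to DMSO and MC2580 from their names, and no depth was given, so neither counts nor scores were corrected for it. The EV and input libraries entered only as background.

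Coordinates are hg38, counted from 1, and gene models were those of GENCODE 44, restricted to autosomes, X and Y. A gene's window was its span plus 50 kb on each side, a promoter peak lay within 3 kb of any annotated TSS, and peaks overlapped by at least 1 bp. The canonical TSS is that of the Ensembl canonical transcript. The members and lists were chosen with earlier results of these data known. All peaks in the members' windows were named, and genes of the lists where they had a start-site peak or shared a peak with a member. The ligands with no start-site peak were named after their values were seen. The sequence and position of the FPR peak found in both lists are not reported here. No test between conditions was made. Interval and word functions were tested on simulated data. Computation used pandas 2.3.3 and numpy 2.4.6 under Python 3.11.15, intervals scipy 1.17.1, and plots matplotlib 3.10.9.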

Additional observations from a re-analysis of the deposited data

How the results depend on the processing

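No paired analysis was possible because each condition had 1 library, which also left no replicate to omit. Sequencing depth, which limits every comparison of the lists, was unknown. The number of DMSO peaks in the windows was 7 with 10 kb on each side, 25 with 100 kb and 8 when scores below 100 were dropped, and the number of MC2580 peaks was 1, 6 and 1. These changes follow from the width of the window or the cut-off. MC2580 peaks were fewer than DMSO peaks in each setting, as they were over the whole lists (13233 against 21401). Genes with a DMSO peak numbered 4 with 10 kb, and genes with an MC2580 peak numbered 1 with 10 kb, 7 with 100 kb and 1 at a score of at least 100. A DMSO promoter peak within 1 kb of a TSS was found for 2 genes. An MC2580 promoter peak was found for 0 genes within 1 kb, with the canonical TSS alone, or at a score of at least 100. No share over all protein-coding genes is given at these settings, so these gene counts have no background. The overlapping share of the DMSO peaks ran from 12.5% to 25%. These settings reuse largely the same few peaks, so the range is not an independent check.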
